A study of Glycine max with 30 samples.

Results

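The NRP(D/E)2-RNAi family of soybean (Glycine max) was examined as 6 transgenic plants, which carry an RNAi construct against NRP(D/E)2 (NRP(D/E)2-RNAi-T), and 6 non-transgenic plants of the same family that lack it (NRP(D/E)2-RNAi-NT). These 12 of the 30 libraries of the series were chosen by their sample titles, and all 55589 genes of each count table were read. Both groups are of cultivar Mustang, and poly(A) RNA was taken from mature leaves. The NRPE1-RNAi family of the same cultivar has 6 T and 6 NT plants of its own (NRPE1-RNAi-T and NRPE1-RNAi-NT). It is used where a comparison needs plants outside the family. The 3 NRPD1-RNAi-NT plants, of cultivar Jack, are read once as a separate group. They and the NRPD1-RNAi-T plants of their family also enter an alternative fit over all 30 libraries. NRPD1 belongs to polymerase IV. The sources used here do not give the promoter that drives the construct, the number of transformation events or the age of the plants.

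RNA polymerases IV and V are plant enzymes that evolved from RNA polymerase II and work in RNA-directed DNA methylation. Polymerase IV starts the small RNAs of the pathway, and polymerase V makes scaffold transcripts to which those small RNAs pair, so that cytosines are methylated there. NRP(D/E)2 is the catalytic subunit that both enzymes share, as described in Arabidopsis, whereas NRPE1 belongs to polymerase V alone. The pathway is known for keeping transposons and some nearby genes silent. The comparison asks how leaf transcripts differ between plants of 1 family with and without the construct.

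Genes are given by their Glyma identifiers, because none matched a table of names (0 of 55589), and at most 2 are named each way. The transcript of NRP(D/E)2 itself, markers of leaf and other tissues, and gene families were not analysed here, so the knockdown and the tissue stand on the labels. The 12 libraries held 11172345 to 17950012 counts, with 89541600 in all for T and 89495252 for NT. No libraries of 1 group agreed within counting noise (the smallest chi-square per degree of freedom between them was 8.02). This check cannot show that they are separate plants. Each counted as a replicate because the series describes separate plants. In bulk leaf RNA, fewer cells of a type and less RNA per cell cannot be told apart. The sources used here do not give strandedness or the treatment of reads shared by near-identical copies or overlapping genes, and the soybean genome holds many duplicated genes, so the values of single genes are uncertain to that extent.

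Leaves with the construct differed from those without it in many genes and in both directions, and the genes that were higher differed by more. edgeR's quasi-likelihood test was run on the 31773 genes with enough counts, and a gene is called when its Benjamini-Hochberg adjusted p is under 0.05. It called 5037 genes (15.9% of those tested), of which 2734 were higher in T (8.6%) and 2303 lower in T (7.25%). DESeq2 called 7986 genes, 4598 higher and 3388 lower. Under scaling to total counts, without TMM (trimmed mean of M values), 3390 were higher and 1497 lower, and the median log2 fold change of all genes was 0.07 rather than −0.01. At a difference of 2-fold or more (log2 fold change of 1), 1675 called genes were higher and 685 lower. At a log2 fold change of 3 or more, 215 were higher and 46 lower. Changes under 0.5 on the log2 scale made up 235 of the higher calls and 418 of the lower ones.

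Overlap between the groups was counted apart from the test. In 2455 tested genes (7.73%) the 6 T libraries all lay on 1 side of the 6 NT libraries, 1332 of them higher in T (4.19%) and 1123 lower in T (3.53%). Of the called genes, 2262 did not overlap and 2775 did.

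The direction of the calls followed abundance, in CPM (counts scaled to a common library total, after TMM). Under 1 CPM, 112 genes were higher and 45 lower of 1270 tested. Between 1 and 10 CPM, 1278 were higher and 741 lower of 12220. Between 10 and 100 CPM, 1260 were higher and 1340 lower of 16617. Over 100 CPM, 84 were higher and 177 lower of 1666. Under scaling to total counts, an alternative for these classes chosen after the data were seen, the majority of lower calls was lost, with 1662 higher and 823 lower between 10 and 100 CPM and 105 higher and 101 lower over 100 CPM. The median standard error of the log2 fold change was 0.39 in the lowest class and 0.16 between 10 and 100 CPM, and the smallest absolute log2 fold change called was 0.83 in the lowest class and 0.27 between 10 and 100 CPM.

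The 100 most abundant genes, all at or above 669.1 CPM, were mostly lower in T, although few passed the test. None was called higher and 10 were called lower, beside 8.6% and 7.25% of all tested genes. Their log2 fold change was below 0 in 84 of 100, with a median of −0.33. Under scaling to total counts it was below 0 in 78 of 100, with a median of −0.25 and 5 called lower. They took 12% ± 1.12 of all counts in T and 13.8% ± 0.381 in NT (SD, n = 6 each). TMM factors, which rescale a library for such shifts in composition, averaged 1.029 ± 0.036 in T and 0.973 ± 0.029 in NT (SD, n = 6 each, two-sided exact permutation p = 0.0195, Benjamini-Hochberg 0.0195 over 3 tests). CPM are relative levels, and the amount of RNA per leaf was not measured.

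**Figure D1:**
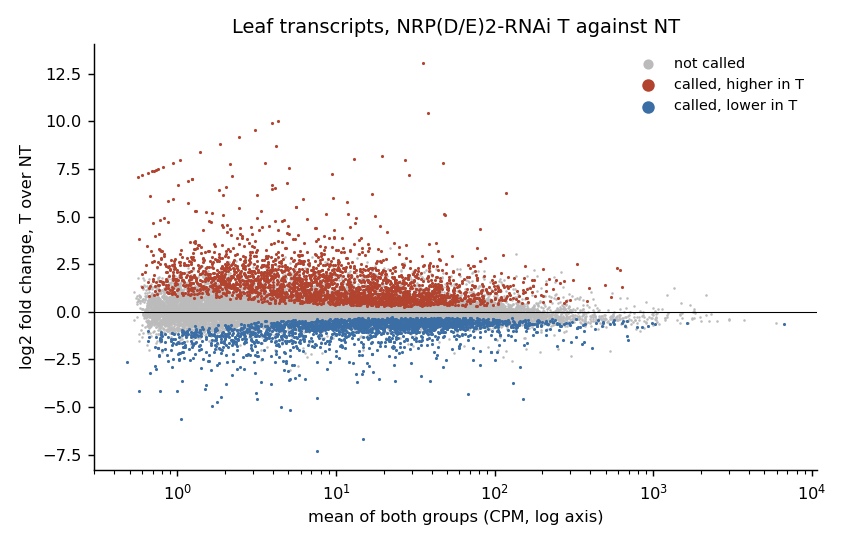
Log2 fold change of NRP(D/E)2-RNAi-T over NT (vertical axis) against the mean CPM of both groups (horizontal log axis) for the 31773 tested genes, with 2734 called higher in T in red, 2303 called lower in T in blue and the rest in grey. The largest fold changes lie above 0 and at low and middle levels, while called genes over 100 CPM are mostly below 0 under the TMM scaling plotted here (105 higher and 101 lower under scaling to total counts).

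The strongest single differences were near-complete. Glyma.05G113500, at rank 1135 of the 2491 identifiers of chromosome 5, had 31.1, 46.3, 14.7, 138, 47 and 149 CPM in T 1 to 6 and no count in any NT library. T 4 and T 6 were the highest and T 3 the lowest of the T libraries, and none came near 0. The T mean of 71.02 ± 57.48 CPM (SD, n = 6) was at least 2060-fold higher than the 0.03443 CPM that 3 counts over the NT group would give (edgeR adjusted p = 0.0005776). Glyma.01G058400, at rank 584 of the 2457 identifiers of chromosome 1, had 152, 95.2, 56.6, 55.4, 54.6 and 40.4 CPM in T and 0.0582, 0, 0.0718, 0, 0.155 and 0 CPM in NT. Its log2 fold change was 10.44 ± 0.56 (SE; edgeR adjusted p = 2.759e-07), on only 4 counts in NT.

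The converse pattern stood in a few genes. Glyma.01G034200, at rank 342 on chromosome 1, had 0.0647, 0.12, 0.293, 0.0589, 0 and 0 CPM in T and 14.2, 11.6, 25.3, 14.1, 10.5 and 14.6 CPM in NT. T over NT came to −7.29 ± 0.46 on the log2 scale (SE), with an edgeR adjusted p of 7.999e-07. NT 3 was the highest NT library, and every T library was under 0.5 CPM. Glyma.03G190800, at rank 1908 of the 2649 identifiers of chromosome 3, had 0.324, 0.12, 0.22, 0.353, 0.426 and 0.29 CPM in T and 32, 35.5, 36, 17.3, 22.1 and 33.8 CPM in NT. Its log2 fold change was −6.65 ± 0.28 (SE; edgeR adjusted p = 2.631e-08), with T libraries close to each other. The named genes were taken by size from the 908 higher and 872 lower of the 31773 tested genes that were called without overlap of T and NT and averaged 5 CPM or more in the higher group.

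A group of genes was on in all T leaves and off, or nearly so, in NT leaves. Switched-on genes are those with an NT mean under 0.1 CPM and at least 0.5 CPM in each T library (5.866 to 8.633 counts, depending on the T library), and switched-off genes are the reverse. This chose 62 genes as switched on and 7 as switched off. The rule used the contrast, so the 54 switched-on genes that passed the filter had to differ (all 54 were called, beside 8.6% of all genes), and nothing is read from that count. The T means of the 62 genes had a median of 2.382 CPM and ran from 0.7887 to 75.71 CPM, and 4 reached 10 CPM. In 19 of them no NT library held a count. The 7 switched-off genes had NT means from 0.9347 to 15.04 CPM, with a median of 2.067 CPM.

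The 62 switched-on genes were not at the same level in every T plant. The ratio of the highest to the lowest T library had a median of 3.224 and reached 23.66. T 1 was the highest library in 20 genes and T 6 in 17, against 10 for T 4, 8 for T 3, 5 for T 2 and 2 for T 5. They lay on all 20 chromosomes, with at most 5 on any of them.

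**Figure D2:**
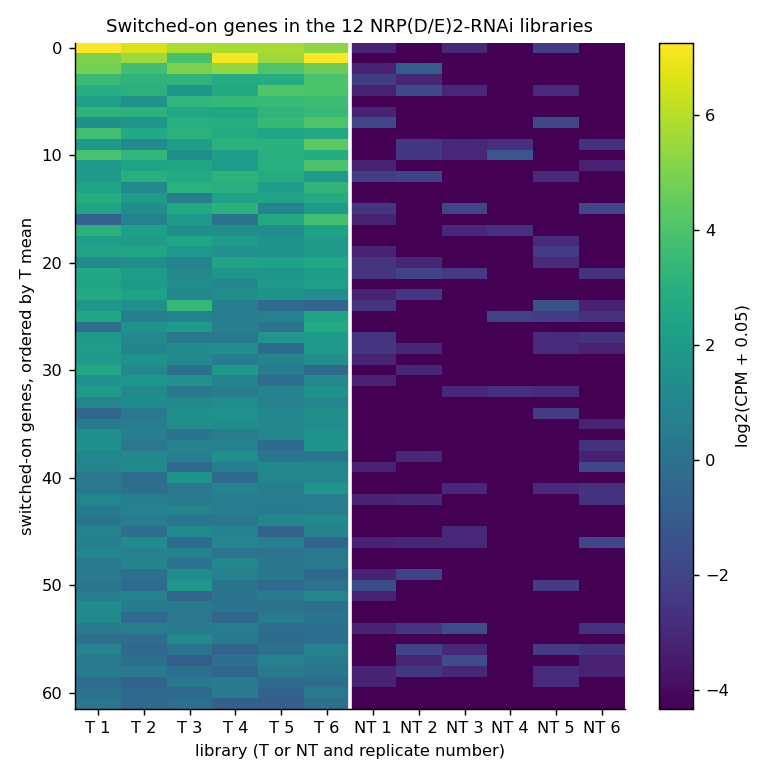
Level of the 62 switched-on genes (rows, ordered by their T mean) in the 6 T libraries (left) and the 6 NT libraries (right) as log2(CPM + 0.05). All T libraries show the genes at 0.5 CPM or more, while NT libraries are at or near 0, with scattered faint values.

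The same 62 genes were read in plants outside the family. In NRPE1-RNAi-NT plants, 39 of the 62 had a mean under 0.1 CPM and 14 had no count, but 18 reached 0.5 CPM in at least 1 library. In NRPD1-RNAi-NT plants of cultivar Jack, 16 reached 0.5 CPM in at least 1 library. Of the 62, 43 were at 0.5 CPM or more in every NRPE1-RNAi-T library. Of the 7 switched-off genes, 4 were at 0.5 CPM or more in every NRPE1-RNAi-NT library.

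Most genes that were silent in NT and reached 0.5 CPM in T did so in some T plants only. Below that threshold a T library can still hold counts of such a gene. Of 12476 genes with no count in any NT library, 168 reached 0.5 CPM in at least 1 T library, 82 of them in exactly 1 plant, 25 in 2, 23 in 3, 11 in 4, 8 in 5 and 19 in all 6. In the converse, of 11102 genes with no count in any T library, 15 reached 0.5 CPM in at least 1 NT library, 11 of them in 1 plant and none in all 6. Without NT 4 the 15 became 9. At a threshold of 1 CPM the 2 numbers were 87 and 3. The single T libraries held 64, 49, 83, 61, 69 and 73 of the 168 genes, and T 3 alone held 29. Those on in 1 plant were low, with a median of 0.7081 CPM and a maximum of 5.307 CPM in that plant, against a median of 2.531 CPM in the highest T library for genes on in all 6. In NRPE1-RNAi-NT plants, 62 of the 168 had no count, and 30 reached 0.5 CPM in at least 1 library. In NRPE1-RNAi-T plants, 112 of the 168 reached 0.5 CPM in at least 1 library. Only 17 of the 168 passed the filter of the test, so most of this group is outside the 5037 calls.

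**Figure D3:**
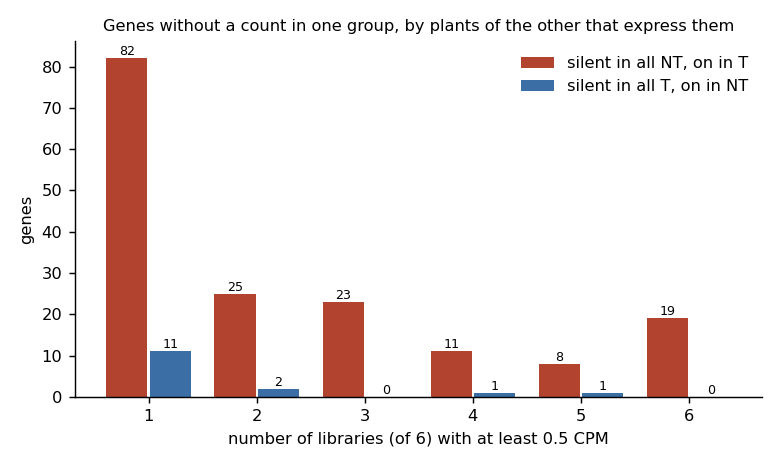
Number of genes (vertical axis) with no count in any NT library that reached 0.5 CPM in 1 to 6 T libraries (red), and with no count in any T library that reached 0.5 CPM in 1 to 6 NT libraries (blue). The red bars run from 82 genes in 1 plant to 19 in all 6, and the blue bars hold 15 genes in all.

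Silent genes were also listed from plants outside the family. Among 11892 genes with no count in any of the 6 NRPE1-RNAi-NT libraries, the T libraries held 62, 46, 64, 52, 55 and 60 genes at 0.5 CPM or more, and the NT libraries held 14, 10, 13, 29, 16 and 13. Every T library lay above every NT library, and NT 4 stood apart among NT. The means were 56.5 ± 6.80 in T and 15.83 ± 6.74 in NT (SD, n = 6 each), a difference of 40.7 genes (two-sided exact permutation p = 0.00216, the smallest that 924 labelings allow, Benjamini-Hochberg 0.00325 over 3 tests). This list did not use the libraries of the family, but it came from non-transgenic Mustang plants, as the NT group is. No list of genes silent in NRPE1-RNAi-T was made, so the converse direction was not read in this way.

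Library position was also read with each library held out. The T against NT test was run on the other libraries. The position used the mean log2 CPM of the genes it called higher minus that of the genes it called lower. It is thus a position on genes called in this contrast, not on all genes. On the line from the mean of the other NT libraries (0) to the mean of the other T libraries (1), T 1 to 6 stood at 0.9415, 1.005, 1.241, 0.8208, 0.8214 and 0.6282, and NT 1 to 6 at 0.2838, 0.2011, −0.316, −0.1099, 0.2877 and 0.2322. The groups did not overlap on that line. In a principal component analysis of the 12 libraries, the first component took 49.62% of the variance, with T 3 at one end (117.5) and NT 3 (−153.4) and NT 4 (−102.4) at the other. Leaving out these 3 libraries left 1938 called genes, against 5037, and this alternative was chosen after the data were seen. The count was also 2921 without T 3, 3060 without T 2 and 3220 without NT 4. Libraries correlated with a median r of 0.9363 across genes within T, 0.9294 within NT and 0.8827 between T and NT, as a description only. The median SD of log2 CPM over 23273 genes at 5 CPM or more was 0.2568 in T and 0.3009 in NT, and 0.2335 without T 3 and 0.2406 without NT 3 and NT 4.

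T and NT also lay apart along an axis on which non-transgenic plants of another family differ among themselves. The first principal component of the 6 NRPE1-RNAi-NT libraries took 54.98% of their variance, and its scores ran from −98.97 in NRPE1-RNAi-NT 5 to 151.2 in NRPE1-RNAi-NT 4. Read on this axis and centred over the 12 libraries of the family, T plants had 39.15, 34.54, 80.9, 18.85, 17.99 and 20.86, and NT plants had −7.936, −2.422, −103.7, −55.88, −2.514 and −39.8. All 6 T libraries lay above all 6 NT libraries. The means were 35.38 ± 23.97 in T and −35.38 ± 40.08 in NT (SD, n = 6 each), a difference of 70.8 (two-sided exact permutation p = 0.00216, Benjamini-Hochberg 0.00325). Without NRPE1-RNAi-NT 4 in making the axis the difference was 44 (exact permutation p = 0.0411). Across the 31773 tested genes, which are not independent replicates, the axis loading and the log2 fold change had r = 0.4599, as a description.

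**Figure D4:**
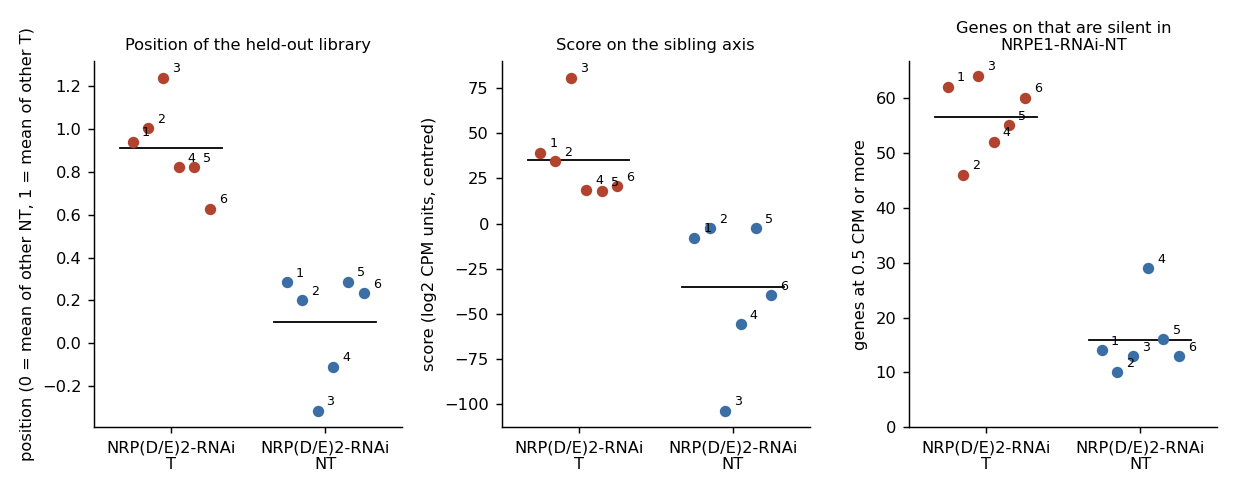
Values of the 6 NRP(D/E)2-RNAi-T libraries (red) and 6 NT libraries (blue), numbered by replicate, with group means as lines: the position of each held-out library between the group means, the score on the axis of variation among NRPE1-RNAi-NT plants, and the number of genes at 0.5 CPM or more among those silent in NRPE1-RNAi-NT. T lies above NT without overlap in each panel.

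With the axis score as a covariate, edgeR's quasi-likelihood test called 363 genes, 183 higher and 180 lower, and 330 of them were among the 5037. The sign of 4831 of the 5037 was kept. Their median log2 fold change was 0.51 for the genes called higher before, against 1.26 without the covariate, and −0.48 for those called lower, against −0.73. Of the 54 switched-on genes tested, 50 were called, and since the T against NT contrast chose them nothing is read from that count. Score and group are strongly related here, and the part of the axis in the difference between T and NT was not tested. This covariate was chosen after the data were seen.

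Genes that vary most among NRPE1-RNAi-NT plants were called higher in T more often. The 23273 genes at a mean of 5 CPM or more were put into 5 equal classes by that spread. From the lowest to the highest, 3.29%, 4.04%, 5.14%, 8.31% and 18.7% were called higher in T. The shares called lower in T were 5.84%, 7.05%, 8.53%, 9% and 9.15%. The median absolute log2 fold change between T and NT was 0.1675 in the lowest class and 0.6396 in the highest. NRPE1-RNAi-NT 4, with the highest score on the axis above (151.2, the next 23.76), was included in the spread. Classes without this plant were not made.

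**Figure D5:**
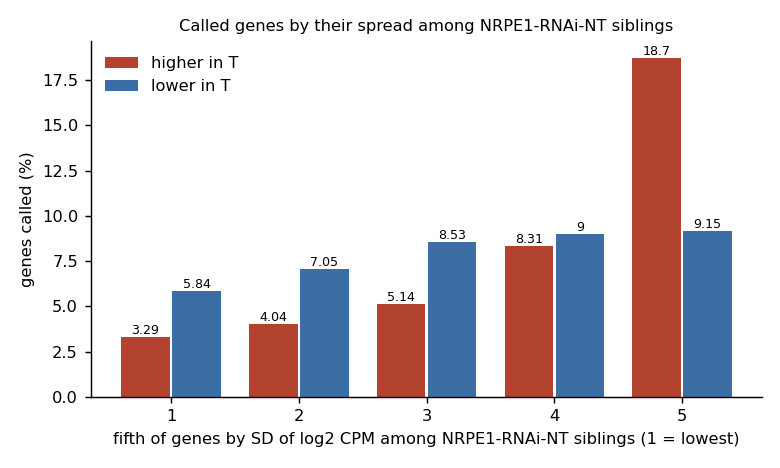
Share of genes called higher in NRP(D/E)2-RNAi-T (red) and lower in T (blue) in 5 equal classes of genes by the SD of log2 CPM among NRPE1-RNAi-NT plants (lowest on the left). The share called higher reaches 18.7% in the highest class, and the share called lower stays between 5.84% and 9.15%.

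Calls were spread over the genome, with a denser share on chromosome 16. Of its 1238 tested genes, 161 (13%) were called higher and 72 (5.82%) lower, whereas 7.32% to 9.8% were called higher on the other chromosomes. Chromosome and order were read from the identifiers, since the sources used here do not give the build.

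Stretches of adjacent tested genes called the same way were found in 8 places at a length of 5 or more genes, 7 of them higher in T. At a length of 3 or more, 57 were higher and 27 lower. Calls of the T against NT contrast chose these stretches, so their genes had to differ between T and NT, and nothing is read from that. The longest stretch was on chromosome 16 at ranks 1687 to 1699, with 10 genes and a median log2 fold change of 1.66. Their mean log2 CPM was 2.63 ± 0.121 in T and 0.65 ± 1.18 in NT (SD, n = 6 each), with a range of 2.487 to 2.751 in T and −1.461 to 1.806 in NT. All 10 genes were non-overlapping. Of the 2734 genes called higher, from which the stretch was chosen, 1228 were so, beside 4.19% of all tested genes. Nothing is read from this count either. NT 3 was the lowest NT library, as it was in all 8 stretches. A stretch of 6 genes at ranks 1913 to 1936 of the same chromosome averaged 2.303 ± 0.395 in T and −1.50 ± 1.28 in NT on the log2 CPM scale (SD, n = 6 each), with a median log2 fold change of 3.54. The sole stretch that was lower was on chromosome 2, ranks 1358 to 1363, with 6 genes that averaged 5.049 ± 0.387 in T and 6.22 ± 0.426 in NT (SD, n = 6 each). In NRPE1-RNAi-NT plants the mean of the 10 genes on chromosome 16 ranged from −0.09063 to 2.939, which takes in all of the T range and part of the NT range. With the axis covariate described above, 6 of the 8 stretches held no called gene and the other two held 1 each, but their folds moved unequally. The median log2 fold change of the chromosome 2 stretch was −1.21 with the covariate and −1.22 without it, with the sign kept in 6 of 6 genes. The stretch at ranks 1913 to 1936 of chromosome 16 had 2.97 with the covariate and 3.54 without it, and the one of 10 genes had 0.56 and 1.66. A stretch of 7 genes on chromosome 7, ranks 940 to 959, had 0.0037 with the covariate and 1.86 without it, with the sign kept in 4 of 7 genes.

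The T against NT difference, called the effect here, was set against that of the NRPE1-RNAi family by a test of the difference between effects. The test was edgeR's quasi-likelihood interaction over the 24 Mustang libraries, in which each family had its own NT plants. Of 33515 genes tested, 67 differed (0.2%), 26 higher (0.0776%) and 41 lower (0.122%) in NRP(D/E)2-RNAi, while 3516 had an unadjusted p under 0.05. The count was 39 without NRPE1-RNAi-NT 3, 118 without NRPE1-RNAi-NT 4, 146 without T 6 of the NRP(D/E)2-RNAi family and 302 with DESeq2. The effect in NRP(D/E)2-RNAi was the larger in 40 of the 67. Of these 67, 47 were also called in the T against NT test of the family, beside 15.9% of all genes tested there. Both tests use the same libraries of the family, so this overlap is no separate support. None of the 67 was a switched-on gene.

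Glyma.13G317600 had 22.9, 15.4, 47.7, 33.4, 53.4 and 16.8 CPM in NRP(D/E)2-RNAi-T and 0.98, 0.764, 0.944, 1.61, 0.798 and 0.892 CPM in NT. In NRPE1-RNAi-T it had 3.23 to 14.3 CPM and in NRPE1-RNAi-NT 1.61 to 11.6 CPM, ranges that overlap. On the log2 scale, T exceeded NT by 4.99 ± 0.53 in the NRP(D/E)2-RNAi family, while the NRPE1-RNAi family gave 0.44 ± 0.45, a difference of 4.55 ± 0.68 (SE; edgeR adjusted p = 0.001842). Glyma.13G048800 had 1.9 to 7.88 CPM in NRP(D/E)2-RNAi-T and 0.337 to 1.03 CPM in NT, against 0 to 0.448 CPM in NRPE1-RNAi-T and 0.0791 to 3.85 CPM in NRPE1-RNAi-NT. Its difference was 5.04 ± 0.97 (SE; edgeR adjusted p = 0.02506), and NRPE1-RNAi-NT 4 was far above its group. Without NRPE1-RNAi-NT 4 the difference was 3.31. The call was lost (edgeR adjusted p = 0.05173 to 0.05615) when NRP(D/E)2-RNAi-T 2, NRP(D/E)2-RNAi-NT 3 or NRPE1-RNAi-T 2, 3 or 5 was left out.

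Glyma.04G061000 was low in the NRP(D/E)2-RNAi-T plants alone of the 4 groups. It had 2.48, 2.85, 1.99, 2.52, 1.99 and 2.17 CPM in NRP(D/E)2-RNAi-T and 27.3, 33.9, 14.4, 14.1, 21.4 and 25.3 CPM in NT, against 25.1 to 33.6 CPM in NRPE1-RNAi-T and 16.3 to 31 CPM in NRPE1-RNAi-NT. The difference of effects was −3.77 ± 0.28 (SE; edgeR adjusted p = 3.496e-08). Glyma.05G222600 had 1.19 to 3.44 CPM in NRP(D/E)2-RNAi-T and 6.1 to 16.1 CPM in NT, against 1.44 to 4.72 CPM in NRPE1-RNAi-T and 0.491 to 1.02 CPM in NRPE1-RNAi-NT. Its difference was −3.84 ± 0.48 (SE; edgeR adjusted p = 0.0001825). T over NT was −2.09 ± 0.33 on the log2 scale in the NRP(D/E)2-RNAi family and 1.76 ± 0.35 in the NRPE1-RNAi family (SE). The T groups of both families overlapped, whereas their NT groups did not. These 4 genes were chosen after the values were seen.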

How the data were processed

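Poly(A) RNA of mature leaves was selected on beads and sequenced by Illumina HiSeq (source: the labels' protocols). The authors deposited raw read counts, 1 table of 55589 genes per library, and per the submitters' processing notes FastQC 0.11.5, STAR 2.5.3a and edgeR were used, with no role stated. The sources used here do not give the genome build, annotation, counter or strandedness. Counts were analysed in R 4.3.3 with edgeR 4.0.16 (filterByExpr by group, TMM, quasi-likelihood test, Benjamini-Hochberg), with limma 3.58.1 loaded as its dependency and with DESeq2 1.42.0 as an alternative, and figures used matplotlib 3.10.9. CPM were computed from these counts. The code was tested on simulated data. Principal components used log2 CPM with a prior count of 1. P-values of single values come from two-sided exact permutation tests over the libraries. The libraries were taken as separate plants, as the series describes. No column was left unused.

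The members and thresholds were chosen with earlier results of these data known, and the 24 gene lists planned could not be applied without names. Genes named are those called, at 5 CPM or more in the higher group and without overlap, by absolute log2 fold change. For the difference between families, the rule, set afterwards, took called genes at 5 CPM in the highest group, called the same way in the family and with the larger effect there. Replicate numbers are shared between T and NT but carry no stated meaning; the numbers did not pair the libraries by the check used.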

Additional observations from a re-analysis of the deposited data

Results flagged for a closer look

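Dixon's test was applied to 34 groups of 6 libraries, and chance flags about 1 in 20 such groups. T 3 was far above the other T libraries on the axis of variation among NRPE1-RNAi-NT plants, at 80.9. NT 4 was far above the other NT libraries in the number of genes silent in NRPE1-RNAi-NT that it held at 0.5 CPM, at 29. NT 3 had 25.3 CPM of Glyma.01G034200, above the other NT libraries. NT 4 had 1.61 CPM of Glyma.13G317600, and NRPE1-RNAi-T 1 had 14.3 CPM of the same gene, each above its group. NRPE1-RNAi-NT 4 had 3.85 CPM of Glyma.13G048800, above its group.

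The T against NT difference of the NRP(D/E)2-RNAi family differed from that of the NRPE1-RNAi family, by a test of the difference, for the 4 genes named for it above. The log2 differences, NRP(D/E)2-RNAi minus NRPE1-RNAi, were 5.04 for Glyma.13G048800, 4.55 for Glyma.13G317600, −3.84 for Glyma.05G222600 and −3.77 for Glyma.04G061000 (edgeR adjusted p = 0.02506, 0.001842, 0.0001825 and 3.496e-08, in that order).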

How the results depend on the processing

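Beside the 5037 called genes, DESeq2 called 7986 (5012 of them shared with the 5037), the replicate block 2198 (2099 shared), the fit without the 3 libraries at the ends of the first component 1938 (1743 shared) and the fit with the axis covariate 363 (330 shared). Leaving out 1 library at a time gave 2921 to 5521. The counts were 5032 with relative log expression size factors, 4887 with total counts, 5232 without a filter, 4795 with a filter at 1 CPM, 4970 with the 24 Mustang libraries and 5103 with all 30. For the 67 genes whose effect differed between families, DESeq2 gave 302, the replicate block 19, and leaving out 1 library 39 (without NRPE1-RNAi-NT 3) to 146 (without T 6), with 118 without NRPE1-RNAi-NT 4. The 168 genes silent in NT and on in T became 87 at 1 CPM (139 to 214 with 1 library left out), and the converse 15 became 3 at 1 CPM (9 to 20). Switched-on genes numbered 60 to 67 and switched-off genes 6 to 10 with 1 library left out. Of 200 alternatives for named genes, 194 kept the call and none turned its direction; the other 6, all for Glyma.13G048800, had edgeR adjusted p of 0.05173 to 0.1011. The replicate number was not shown to pair the plants: same-numbered libraries had r of −0.0035, −0.158, −0.371, 0.112, −0.232 and 0.256 across genes, and 2 of 12 libraries were closest to their own number. Causes of these changes were not tested. Under 1 CPM, no called gene had an absolute log2 fold change below 0.83.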

Other observations

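In 10 equal stretches of each chromosome by identifier rank, 7.8% to 10.8% of tested genes were called higher in T and 6.27% to 8.49% lower in T. The 168 genes silent in NT and on in T numbered between 8 and 24 in a stretch, and they held 11 pairs of neighbours.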
